A study of Mus musculus with 6 samples.

Results

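The genes described here are 39 mouse genes of glucose uptake, glycolysis, lactate handling, pyruvate oxidation and glycogen turnover, named as a list and found by symbol among the 43629 genes counted in each heart. All 39 were found, and 38 passed the filter on low counts. The poly(A) RNA came from left ventricles of CD-1 males at 1 year of age. Their dams had been injected i.p. once daily with normal saline (vehicle, n = 3 hearts) or with 20 mg/kg caffeine (n = 3 hearts) from embryonic day (E) 6.5 to E9.5, although another of the labels gives the end as E10.5. The labels give no treatment after birth and no genetic change. The study lists echocardiography and dobutamine treatment for offspring of this exposure, and whether these mice had them is not given. The dam and litter of each heart were not given either. The p-values thus treat the hearts as independent and set the treatments against the spread between these hearts. Hearts that shared a dam would not be independent, and the p-values could then be too small. CD-1 is an outbred stock.

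Glucose enters heart muscle cells mainly through the insulin-responsive transporter Slc2a4 (GLUT4), is trapped as glucose 6-phosphate by hexokinases, and is then either stored as glycogen or broken down to pyruvate by glycolysis. Pyruvate is reduced to lactate in the cytosol, or carried into mitochondria and oxidised by the pyruvate dehydrogenase complex, which pyruvate dehydrogenase kinases switch off and phosphatases switch on. The adult heart draws most of its energy from fatty acids, and its use of glucose is known to change in the failing heart.

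Total counts ran from 9228359 to 10483101 in vehicle hearts and from 7613011 to 9153997 in caffeine hearts, so that every caffeine library was smaller than every vehicle library. Values are CPM, the reads of a gene in proportion to the reads of its library, scaled with TMM factors, where 3 reads correspond to 0.284 to 0.42 CPM. The members took 1.85%, 1.74% and 1.73% of all reads in vehicle hearts 1 to 3. In caffeine hearts 1 to 3 they took 1.63%, 1.68% and 1.66%, so every caffeine heart lay below every vehicle heart. The 10 genes with most reads took 17.1% to 20.1% of all reads in vehicle and 22.6% to 26.0% in caffeine hearts. Cardiomyocyte markers were high in every heart, at a summed 50700 to 59700 CPM in vehicle and 50500 to 54200 CPM in caffeine hearts. Adipocyte markers summed to at most 1.95 CPM. Skeletal muscle markers summed to 17.8 to 28.6 CPM in vehicle and 13.5 to 33.8 CPM in caffeine hearts, nearly all of it from Myl1 (13.2 to 33.5 CPM over all hearts), and 2 of the 7 were at 0 in every heart. Fibroblast markers summed to 770 to 920 CPM in vehicle and 1020 to 1160 CPM in caffeine hearts, with all 6 tested genes above 0 in log2 fold change. Macrophage markers summed to 44.4 to 71.3 CPM and 59.4 to 89.0 CPM, with all 5 above 0. The 4 atrial markers summed to 53.3 to 182 CPM in vehicle and 267 to 435 CPM in caffeine hearts, nearly all of it from Nppa, a gene that ventricles also express under load, while Myl7 and Sln were at most 0.235 CPM. No marker passed an adjusted p of 0.05. In pieces of tissue, fewer cells of a type and less RNA per cell cannot be told apart, and the part of cell makeup in the values below was not tested.

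No member passed the test for a difference between caffeine and vehicle hearts. By edgeR's quasi-likelihood test with Benjamini-Hochberg adjustment over all 13092 genes tested, 0 of 38 members passed an adjusted p below 0.05, with or without the fold threshold of 1.5, against 14 of all genes (0.107%). The smallest adjusted p of a member was 0.387, for Ugp2. At an unadjusted p below 0.05 there were 4 members (10.5% against 8.82% of all genes), 3 of them higher with caffeine, where the background was 4.42%, and 1 lower, where it was 4.4%. The exact test, the likelihood ratio test, DESeq2 and limma-voom each called 0 members too, at unadjusted counts of 2, 2, 3 and 4. For 7 members, all caffeine hearts lay on the same side of all vehicle hearts (18.4% against 14.2% of all genes), namely Ugp2, Tpi1, Eno1 and Slc16a3 with caffeine above vehicle (10.5% against 7.11%) and Pdha1, Pdk1 and Gpi1 with caffeine below vehicle (7.89% against 7.12%). These shares lie near the background.

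The data bound most members tightly. The 95% interval of the fold change lay within 1.5-fold in either direction for 30 of 38 members (78.9% against 63.0% of all genes tested). All 24 members with at least 1000 reads in every heart were among them. The interval bound farthest from no change was 1.41-fold for these, the lower bound of Gys1. The 8 members with wider intervals were Pfkp, Gapdh, Pgam1, Slc16a3, Pfkfb1, Pfkfb3, Pdk3 and Mpc1. Log2 fold changes ran from -0.44 for Pgam1 to 0.34 for Slc16a3, and their median absolute size was 0.105 against 0.125 over all genes. The spread between hearts was small as well, with a median coefficient of variation of 9.54% in vehicle and 6.39% in caffeine hearts against 11.1% and 11.5% for all genes. No comparison with genes of like read depth was made, so the part of depth in these intervals and spreads was not tested.

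**Figure D1:**
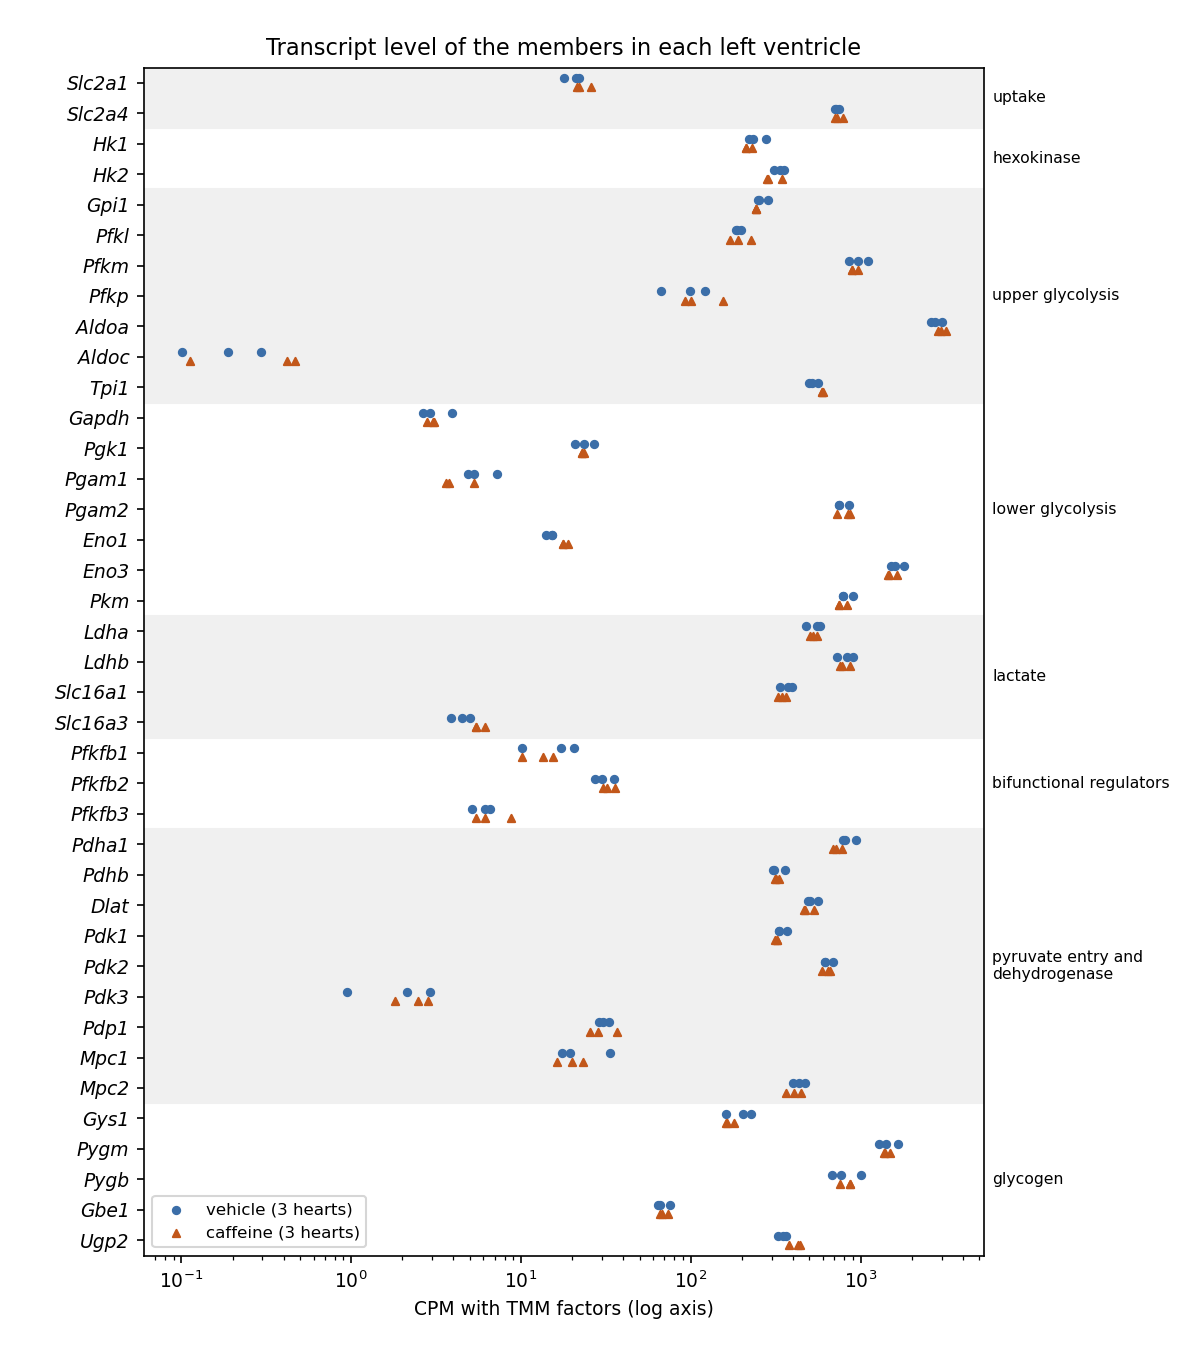
Each row is 1 of the 39 genes and each point 1 heart, with circles for the 3 vehicle and triangles for the 3 caffeine hearts, and the horizontal log axis gives CPM. Levels span from Aldoc at 0.101 to 0.469 CPM to Aldoa at 2600 to 3180 CPM, and the points of both treatments lie close together in nearly every row.

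**Figure D2:**
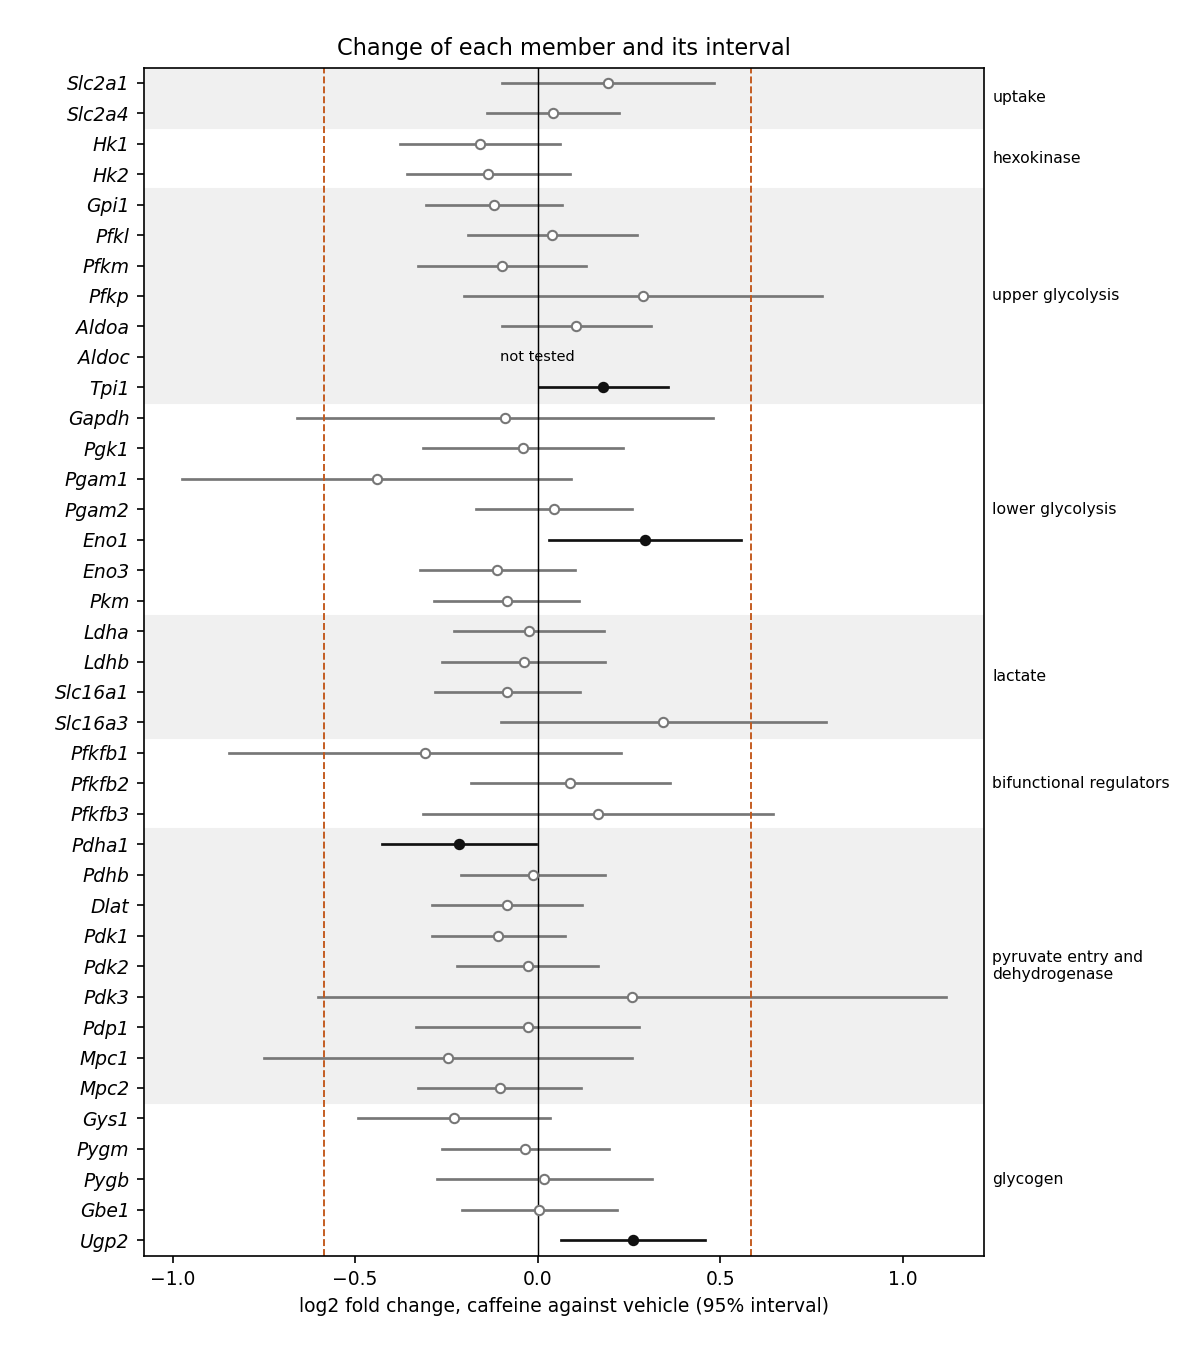
Points give the log2 fold change of caffeine against vehicle for each member and lines its 95% interval, with dashed lines at 1.5-fold (0.585 on the log2 scale) and filled points at an unadjusted p below 0.05. The intervals of 30 members stay between the dashed lines, and Aldoc was not tested.

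The vehicle 1 heart stood apart on these genes. It held the highest CPM for 19 of 38 members (50.0%), while it held the highest value for 18.7% of all genes tested. With TMM factors, the summed CPM of the members was 18932, 16762 and 16186 in vehicle hearts 1 to 3. It was 17384, 17331 and 16539 in caffeine hearts 1 to 3, inside the range of the vehicle hearts. As a share of all reads, without TMM factors, every caffeine heart lay below every vehicle heart (1.63% to 1.68% against 1.73% to 1.85%). Across the members, 23 log2 fold changes were below 0 and 15 above (60.5% below, against 49.8% of all genes), with a median of -0.031 against 0.00088. Without vehicle 1 this median was 0.032 and 22 members were above 0, so its sign rested on that heart.

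For several glycolytic enzymes the genome carries processed copies of the gene, so the sequences decide which reads can name the member. Every 75-base window of each member's main transcript was matched to all other annotated transcripts, since the reads were of that length. Of the 39 members, 21 shared no window with another gene at up to 2 mismatches and 18 shared some. For 12 of these, a gene elsewhere in the genome shared at least 100 windows. How reads that match several places were counted is not given in the sources used here. The Pgk1 copies Pgk1-rs7 and Gm5537 share 1181 and 1178 of its 1751 windows and held 0 reads in every heart. Reads that match these places were thus not counted there, and whether they were counted on the gene was not tested.

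Gapdh, which carries out the oxidative step of glycolysis and was the control gene of the study's qPCR, was the extreme case in the number of matching genes. It shared 82.6% of its windows, and 100% of those in the coding sequence, with 125 other genes, 118 of them pseudogenes. The window printed here, from the coding sequence of Gapdh on the minus strand at chr6:125162873-125162947 (GRCm38), is found without mismatch in 49 other genes and is the most widely shared of its coding windows. It is followed by a window of Pgam2, the muscle phosphoglycerate mutase, at chr11:5803105-5803179 on the minus strand, which is found in no other gene.

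Gapdh: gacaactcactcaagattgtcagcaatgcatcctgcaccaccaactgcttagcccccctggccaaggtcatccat
Pgam2: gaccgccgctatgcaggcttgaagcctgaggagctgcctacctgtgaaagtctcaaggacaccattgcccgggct

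In the counts, Gapdh (ENSMUSG00000057666, chr6:125161715-125166467) held 27, 31 and 39 reads in the vehicle hearts and 22, 27 and 24 in the caffeine hearts. Its processed pseudogene Gm13394 (chr2:28933610-28934609) held 3272, 2756 and 2368 reads in vehicle and 1681, 2528 and 2301 in caffeine hearts. So the pseudogene carried 86.6 times the reads of the gene in vehicle and 89.2 times in caffeine hearts, and 98.4% to 99.2% of the pair. Per kb of exon, Gapdh stood at 0.768 ± 0.167 CPM (SD, n = 3) in vehicle and 0.721 ± 0.035 in caffeine hearts, under its neighbours in the pathway, such as Eno3 at 946 ± 86.8 and 876 ± 61.4. The level listed for Gapdh thus holds a small part of the reads on the pair. Gapdh and its 50 counted copies together held 1725 to 3344 reads per heart, against 22694 to 30943 for Aldoa. Other genes match 80.3% of the Gapdh windows without mismatch, so reads from there may be in neither count. The log2 fold change of Gapdh was -0.089 (95% interval -0.66 to 0.48, adjusted p = 0.96 by edgeR's quasi-likelihood test). That of Gapdh and its 50 counted copies together was -0.054 (-0.31 to 0.20), and the sum need not recover such reads.

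Mpc1, a subunit of the mitochondrial pyruvate carrier, showed the same kind of split. The gene held 140 to 352 reads per heart, against 1227 to 2288 on the pseudogene Mpc1-ps, which thus took 82.3% to 92.0% of the pair. The window printed here is identical in Mpc1 at chr17:8296535-8296609 (plus strand) and in Mpc1-ps at chr12:110858745-110858819 (minus strand). Mpc1 alone had 19.4, 33.3 and 17.5 CPM in vehicle and 23.2, 19.9 and 16.4 CPM in caffeine hearts, with overlapping groups. Summed with its copy, its log2 fold change was -0.047 (95% interval -0.29 to 0.19), in place of -0.25 (-0.75 to 0.26) for Mpc1 alone.

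Mpc1 and Mpc1-ps: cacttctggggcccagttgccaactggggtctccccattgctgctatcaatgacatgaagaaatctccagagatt

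For Gpi1, Ldhb and Pdhb, 1 gene elsewhere shared at least 100 windows, and 14.8%, 16.7% and 19.9% of the members' windows were matched without mismatch by another gene, so that over those windows a read names no single gene. Elsewhere the copy differs from the gene at scattered bases. The following windows, from the coding sequences of the members and the matching stretches of their pseudogenes, differ at 2 bases, which are in capitals. They lie at chr7:34227143-34227217 (minus strand) for Gpi1 and chr8:5639868-5639942 (plus strand) for Gm1840, at chr6:142498541-142498615 (minus) for Ldhb and chr19:21937690-21937764 (plus) for Gm5514, and at chr14:8166407-8166481 (minus) for Pdhb and chr1:4772054-4772128 (plus) for Gm6123.

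Gpi1: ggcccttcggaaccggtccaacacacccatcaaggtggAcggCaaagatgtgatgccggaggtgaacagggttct
Gm1840: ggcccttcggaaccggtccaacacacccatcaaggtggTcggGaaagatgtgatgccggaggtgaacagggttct
Ldhb: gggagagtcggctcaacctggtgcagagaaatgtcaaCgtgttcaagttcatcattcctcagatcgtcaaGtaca
Gm5514: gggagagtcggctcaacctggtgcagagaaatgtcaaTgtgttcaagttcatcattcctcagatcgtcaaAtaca
Pdhb: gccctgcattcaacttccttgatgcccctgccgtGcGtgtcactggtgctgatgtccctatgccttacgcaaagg
Gm6123: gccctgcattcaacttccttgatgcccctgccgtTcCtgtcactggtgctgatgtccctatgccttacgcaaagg

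Of the reads on each pair, Gm1840 took 46.2% to 49.9%, Gm6123 took 33.0% to 34.9% and Gm5514 took 16.0% to 20.3%, and the ranges of both treatments overlapped for each pair. No copy passed an adjusted p of 0.05 by edgeR's quasi-likelihood test. Log2 fold changes were -0.060 for Gm1840, -0.038 for Gm6123 and -0.056 for Gm5514. Eno1 shared 84.7% of its windows, and the gene Eno1b held 27.8% to 33.5% of the pair. Aldoart1 held 4.67% to 5.06% of the reads of itself and Aldoa. With each member summed with its copies, an alternative chosen after the counts were seen, 0 members passed an adjusted p of 0.05 and the intervals of 32 members lay within 1.5-fold. Reads on the members in this group cannot be assigned to 1 locus with certainty, and that limit applies to Gapdh, Mpc1, Gpi1, Ldhb, Pdhb, Eno1, Pgk1, Pgam1, Pkm, Ldha, Tpi1 and Aldoa below.

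**Figure D3:**
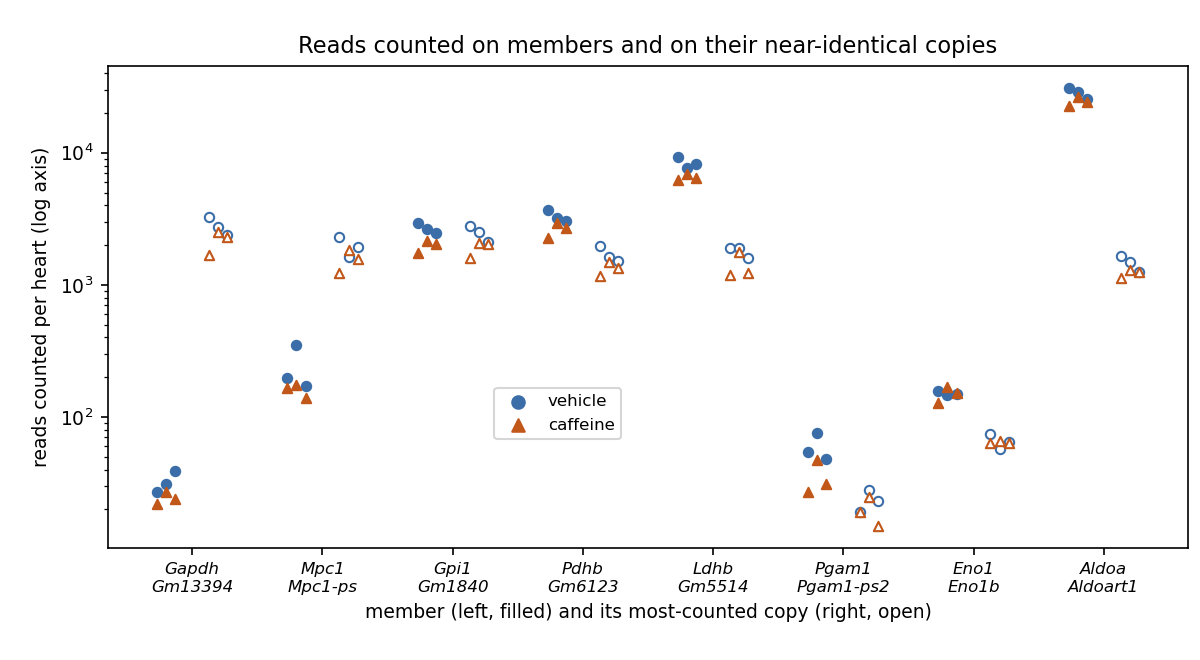
The vertical log axis gives the reads counted per heart for 8 members (filled points) and for the copy of each with most reads (open points), in vehicle (circles) and caffeine hearts (triangles). For Gapdh and Mpc1 the copy lies above the gene, at 1681 to 3272 against 22 to 39 reads for Gapdh, for Gpi1 both are nearly level, and for the others the gene lies above.

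At glucose uptake, Slc2a4 had 743, 713 and 708 CPM in vehicle and 791, 706 and 729 CPM in caffeine hearts. The groups overlapped, and the log2 fold change was 0.041 (95% interval -0.14 to 0.22). Slc2a1 (GLUT1), the transporter that works without insulin, had 17.9 to 21.9 CPM in vehicle and 21.3 to 26.0 CPM in caffeine hearts, with a log2 fold change of 0.19 (-0.097 to 0.48) and an adjusted p of 0.733 by edgeR's quasi-likelihood test. Per kb of exon Slc2a1 made up 2.71% ± 0.245 of both transporters in vehicle and 3.01% ± 0.412 in caffeine hearts (SD, n = 3, exact permutation p = 0.4). The insulin-responsive transporter thus dominated in every heart.

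Both hexokinases, which commit glucose to the cell, had log2 fold changes below 0. Hk2, the muscle form, had 337, 353 and 308 CPM in vehicle and 284, 345 and 280 CPM in caffeine hearts. Caffeine heart 2 lay within the vehicle range, and the log2 fold change was -0.14 (95% interval -0.36 to 0.088, adjusted p = 0.768). Hk1 had 220 to 276 CPM in vehicle and 211 to 231 CPM in caffeine hearts, with a log2 fold change of -0.16 (-0.38 to 0.061). Hk1 made up 33.8% ± 1.43 of the pair per kb in vehicle and 33.6% ± 3.36 in caffeine hearts, a difference smaller than the spread. The level of that share depends on the length used. The merged exons of Hk1 span 8532 bases and its main transcript 3851, against 5969 and 5513 for Hk2. By main transcript the share of Hk1 would be larger.

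In upper glycolysis, Gpi1 (ENSMUSG00000036427, chr7:34201330-34230336), which interconverts glucose and fructose 6-phosphate, had 286, 251 and 250 CPM in vehicle and 242, 241 and 241 CPM in caffeine hearts. All caffeine hearts lay below all vehicle hearts (exact permutation p = 0.1, the smallest that 3 against 3 allows), by a log2 fold change of -0.12 (95% interval -0.31 to 0.065, adjusted p = 0.741). Vehicle heart 1 carried most of that distance, and without it the log2 fold change was -0.055. The other vehicle hearts, at 250 and 251 CPM, lay close to the caffeine hearts.

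Triosephosphate isomerase, encoded by Tpi1 (ENSMUSG00000023456, chr6:124810586-124814296), had 559, 500 and 520 CPM in vehicle and 601, 591 and 596 CPM in caffeine hearts. Here every caffeine heart lay above every vehicle heart, and the caffeine hearts were nearly level. The log2 fold change was 0.18 (95% interval 0.0022 to 0.36), with an unadjusted p of 0.0476 and an adjusted p of 0.561 by edgeR's quasi-likelihood test. It was 0.22 without vehicle 1.

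Phosphofructokinase, the main control point of glycolysis, was mostly the muscle form. Pfkm made up 89.1% ± 1.19 of the Pfk transcripts per kb in vehicle and 87.9% ± 1.11 in caffeine hearts, against 8.75% ± 1.08 and 9.35% ± 0.792 for the liver form Pfkl. Pfkp, the platelet form, ranged widely, from 66.4 to 121 CPM in vehicle and from 92.0 to 155 CPM in caffeine hearts, and it shares 16.6% of its windows with an overlapping gene at its own locus. The log2 fold changes were -0.097 for Pfkm, 0.039 for Pfkl and 0.29 for Pfkp, each with overlapping groups. The hearts of both treatments overlapped for all 3 shares, with exact permutation p values of 0.3 for Pfkm, 0.5 for Pfkl and 0.4 for Pfkp.

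Aldoa, the muscle aldolase, was the most abundant member of upper glycolysis, at 3020, 2740 and 2600 CPM in vehicle and 3180, 2960 and 2860 CPM in caffeine hearts. The groups overlapped, and the log2 fold change was 0.11 (95% interval -0.098 to 0.31, adjusted p = 0.807). Its relative Aldoc held only 1 to 4 reads per heart, at the level of the 3-read floor, so that a difference was not detectable at this depth.

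In lower glycolysis the muscle isoenzymes Eno3 and Pgam2 held more of the counted reads than the non-muscle forms Eno1 and Pgam1. Eno3 and Pgam2 share no window with another gene, while Eno1 shares 84.7% and Pgam1 40.6%. Reads of the non-muscle forms may thus be undercounted. Eno3, the muscle enolase, had 1810, 1600 and 1520 CPM in vehicle and 1650, 1470 and 1460 CPM in caffeine hearts. Caffeine heart 1 lay inside the vehicle range, and the log2 fold change was -0.11 (95% interval -0.32 to 0.10, adjusted p = 0.805). Pgam2 and Pkm, the pyruvate kinase gene, had log2 fold changes of 0.045 (-0.17 to 0.26) and -0.085 (-0.28 to 0.11). Pgk1, phosphoglycerate kinase, had 20.8 to 27.0 CPM in vehicle and 22.8 to 23.5 CPM in caffeine hearts, while its 2 counted copies held 0 reads. Other genes match 67.5% of its windows without mismatch, so reads from those windows may be missing from its count.

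Eno1 (ENSMUSG00000063524, chr4:150236721-150248879), the enolase of most non-muscle cells, had 15.3, 14.0 and 15.2 CPM in vehicle and 17.8, 19.0 and 17.8 CPM in caffeine hearts. Every caffeine heart lay above every vehicle heart, by a log2 fold change of 0.29 (95% interval 0.030 to 0.56), with an unadjusted p of 0.0321 and an adjusted p of 0.512 by edgeR's quasi-likelihood test. Its copy Eno1b had 6.40 ± 0.931 CPM in vehicle and 7.97 ± 0.856 CPM in caffeine hearts (SD, n = 3), with hearts apart (adjusted p = 0.674 by edgeR's quasi-likelihood test). It matches 81.2% of the Eno1 windows, so its reads may come from Eno1 and are no separate observation. The sum of Eno1 and its copies had a log2 fold change of 0.30 (adjusted p = 0.44 by the same test). Per kb, Eno1 was 0.273%, 0.283% and 0.321% of Eno1 and Eno3 together in vehicle hearts and 0.348%, 0.416% and 0.394% in caffeine hearts. These shares did not overlap either (exact permutation p = 0.1, adjusted p = 0.75 over 18 shares), but Eno1 remained a minor part of the enolase reads counted. With 84.7% of its windows shared and none of those of Eno3, its part of the transcripts may be larger.

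Pgam1, the non-muscle phosphoglycerate mutase, had the lowest log2 fold change of all members, -0.44 (95% interval -0.97 to 0.092, adjusted p = 0.652). It had 5.28, 7.19 and 4.86 CPM in vehicle and 3.78, 5.31 and 3.64 CPM in caffeine hearts. Caffeine heart 2 lay inside the vehicle range. It rests on 27 to 76 reads per heart, and summed with its copies the value was -0.27 (-0.74 to 0.19).

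Lactate dehydrogenase interconverts pyruvate and lactate. Ldhb, the heart form, had 906, 730 and 837 CPM in vehicle and 872, 782 and 754 CPM in caffeine hearts. The groups overlapped fully, with a log2 fold change of -0.039 (95% interval -0.26 to 0.18). Ldha, the form typical of fast muscle, had 479 to 581 CPM in vehicle and 507 to 553 CPM in caffeine hearts, and it made up 23.7% ± 2.55 of both per kb in vehicle and 23.9% ± 1.78 in caffeine hearts (exact permutation p = 0.9). The means of that share differed by 0.159 percentage points, less than the spread between hearts.

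Lactate crosses the plasma membrane through monocarboxylate transporters. Slc16a1 (MCT1) had 334 to 393 CPM in vehicle and 328 to 366 CPM in caffeine hearts, with a log2 fold change of -0.083 (95% interval -0.28 to 0.12). Slc16a3 (MCT4; ENSMUSG00000025161, chr11:120948480-120960868), the transporter of lactate-exporting cells, had 4.49, 5.02 and 3.85 CPM in vehicle and 5.46, 5.42 and 6.10 CPM in caffeine hearts. All caffeine hearts lay above all vehicle hearts, and it had the highest log2 fold change of the members, 0.34 (-0.10 to 0.79, unadjusted p = 0.117, adjusted p = 0.675 by edgeR's quasi-likelihood test). Its share of both transporters per kb was 0.984%, 1.05% and 0.951% in vehicle hearts and 1.29%, 1.22% and 1.53% in caffeine hearts. That share and that of Eno1 were the only 2 of 18 isoenzyme shares whose hearts did not overlap, and both have an exact permutation p of 0.1 and an adjusted p of 0.75.

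**Figure D4:**
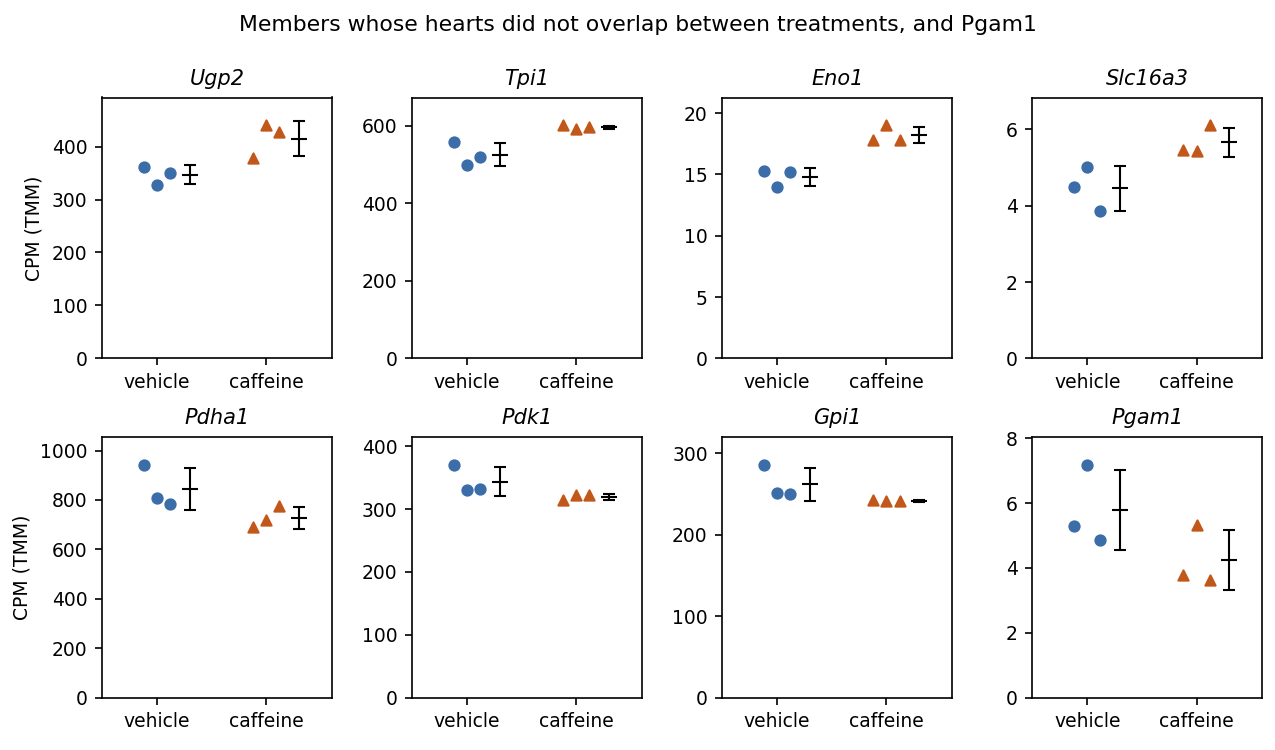
Each panel gives the CPM of 1 gene in each heart on an axis from 0, with circles for vehicle, triangles for caffeine, and bars for the mean and SD of 3 hearts. Ugp2, Tpi1, Eno1 and Slc16a3 have all caffeine hearts above all vehicle hearts, Pdha1, Pdk1 and Gpi1 all below, and Pgam1, with the lowest log2 fold change of -0.44, has overlapping hearts.

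**Figure D5:**
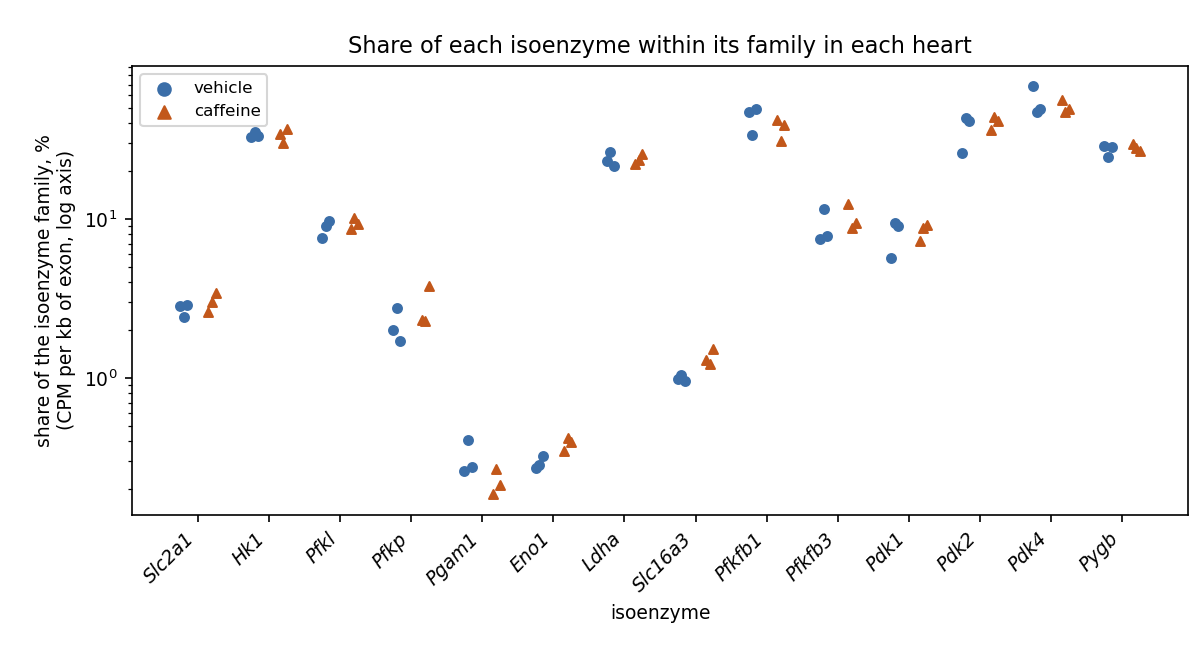
The vertical log axis gives the share of each of 14 isoenzymes in its family, in percent of CPM per kb of exon, for each vehicle (circles) and caffeine (triangles) heart. The shares of Eno1 and Slc16a3 do not overlap between treatments, at 0.273% to 0.321% against 0.348% to 0.416% for Eno1, and those of the other genes plotted do.

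The bifunctional enzymes Pfkfb1, Pfkfb2 and Pfkfb3 make and remove fructose 2,6-bisphosphate, the activator of phosphofructokinase. Pfkfb2, the heart form, had 35.5, 29.9 and 27.3 CPM in vehicle and 30.4, 35.8 and 32.2 CPM in caffeine hearts. The groups overlapped, with a log2 fold change of 0.089 (95% interval -0.18 to 0.36, adjusted p = 0.896). Pfkfb1 ranged from 10.1 to 20.6 CPM in vehicle hearts alone, and its interval of -0.85 to 0.23 reaches past 1.5-fold. Pfkfb3 had 5.17 to 6.53 CPM in vehicle and 5.42 to 8.68 CPM in caffeine hearts. Pfkfb2 made up 47.7% ± 6.39 of the family per kb in vehicle and 52.6% ± 7.35 in caffeine hearts, a difference smaller than the spread. It shares 24.3% of its windows with an overlapping gene at its own locus. Its merged exons span 7254 bases and its main transcript 4425, against 4017 and 1739 for Pfkfb1. The order of Pfkfb1 and Pfkfb2 in the family thus rests on the length used.

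Of the 9 genes of pyruvate entry and oxidation, 8 had log2 fold changes below 0, against 49.8% of all genes, and none passed the test. In some alternative runs Mpc1, Pdhb, Pdk2 and Pdp1 lay above 0, and Pdk3, otherwise above, lay below 0. Pdha1 (ENSMUSG00000031299, chrX:160122209-160138413) encodes the catalytic E1 alpha subunit of pyruvate dehydrogenase. It had 943, 809 and 785 CPM in vehicle and 689, 719 and 775 CPM in caffeine hearts. Every caffeine heart lay below every vehicle heart, although caffeine 3 and vehicle 3 were 775 and 785 CPM. The log2 fold change was -0.22 (95% interval -0.43 to -0.0055), with an unadjusted p of 0.0452 and an adjusted p of 0.557 by edgeR's quasi-likelihood test. It was -0.13 without vehicle 1, with an adjusted p of 0.719.

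The other subunits of the complex were closer to 0. Pdhb, E1 beta, had 304 to 359 CPM in vehicle and 315 to 332 CPM in caffeine hearts, with a log2 fold change of -0.013 (95% interval -0.21 to 0.18). Dlat, the E2 core, had 488 to 562 CPM and 462 to 533 CPM, with a log2 fold change of -0.085 (-0.29 to 0.12). These subunits work with Pdha1 in 1 complex, and the difference between the subunits was not tested. Mpc2, the partner of Mpc1, had a log2 fold change of -0.10 (-0.33 to 0.12).

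Among the kinases that inactivate the complex, Pdk1 (ENSMUSG00000006494, chr2:71873224-71903858) had 371, 330 and 332 CPM in vehicle and 314, 322 and 322 CPM in caffeine hearts. All caffeine hearts lay below all vehicle hearts (exact permutation p = 0.1), with a log2 fold change of -0.11 (95% interval -0.29 to 0.073) and an adjusted p of 0.774, and the value was -0.051 without vehicle 1. Pdk2, the most abundant kinase of the list per kb, had 617 to 692 CPM in vehicle and 590 to 661 CPM in caffeine hearts, at -0.028 (-0.22 to 0.16). Pdk3 had 0.946 to 2.93 CPM in all hearts, too few reads to bound a change within 1.5-fold. The phosphatase Pdp1, which reactivates the complex, was at -0.028 (-0.33 to 0.28).

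A further kinase, Pdk4, is no member of the list, and its level is known to follow fasting and fatty acid supply. It had 2030, 739 and 810 CPM in vehicle and 1100, 780 and 782 CPM in caffeine hearts. Vehicle 1, the heart with the highest value for 19 members, was also far above the others for Pdk4. There the share of Pdk4 in the kinase transcripts per kb was 68.3%, against 46.9% to 56.2% in the other hearts. Feeding state and time of collection were not given for each heart, and their part in these values was not tested.

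In glycogen turnover, Ugp2 (ENSMUSG00000001891, chr11:21321138-21371201), which makes the UDP-glucose that glycogen is built from, had the smallest p of all members. It had 362, 327 and 351 CPM in vehicle and 378, 440 and 428 CPM in caffeine hearts. All caffeine hearts lay above all vehicle hearts, by a log2 fold change of 0.26 (95% interval 0.065 to 0.46), a fold of 1.20, with an unadjusted p of 0.0138 and an adjusted p of 0.387 by edgeR's quasi-likelihood test. Without vehicle 1 the value was 0.29. Ugp2 shared almost none of its windows with another gene (0.153%), so near-identical copies do not touch it.

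Gys1, muscle glycogen synthase, which uses the product of Ugp2, had 227, 202 and 161 CPM in vehicle and 179, 161 and 164 CPM in caffeine hearts. The groups overlapped from 161 to 179 CPM, and all caffeine hearts lay within the vehicle range. The log2 fold change was -0.23 (95% interval -0.49 to 0.033, adjusted p = 0.632 by edgeR's quasi-likelihood test), and -0.11 without vehicle 1. Gbe1, the branching enzyme, was at 0.0045 (-0.21 to 0.22). Pygm, the muscle glycogen phosphorylase and the most abundant gene of this step per kb, had 1660, 1420 and 1280 CPM in vehicle and 1390, 1500 and 1370 CPM in caffeine hearts, and Pygb, the brain form, was at 0.018 (-0.28 to 0.31). The steps of glycogen synthesis therefore lay on both sides of 0.

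Of 75 further genes of the pathway, from lists of other isoforms, glycogen regulators, pentose phosphate and hexosamine genes, reducing equivalent shuttles and insulin signalling with Slc2a4 trafficking, 70 were tested. There were 29 log2 fold changes above 0 and 41 below, 0 passed an adjusted p of 0.05 in either direction, 5 had an unadjusted p below 0.05 (7.14% against 8.82% of all genes) and 6 had hearts that did not overlap (8.57% against 14.2%). The counts below and above 0 were 13 and 8 for the 21 tested glycogen genes and 8 and 3 for the 11 genes of insulin signalling. Of all genes tested, 49.8% lay below 0. The 10 shuttle genes had overlapping hearts throughout, as did the 9 genes of the pentose phosphate and hexosamine routes.

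Among those with hearts apart was Phkg1, the muscle catalytic subunit of phosphorylase kinase, which activates glycogen breakdown. It had 18.9, 14.1 and 10.2 CPM in vehicle and 8.26, 9.71 and 9.03 CPM in caffeine hearts. All caffeine hearts lay below all vehicle hearts, and the log2 fold change was -0.67 (95% interval -1.14 to -0.21), with an unadjusted p of 0.00842 and an adjusted p of 0.337 by edgeR's quasi-likelihood test.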

How the data were processed

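RNA was measured in the left ventricles of 3 vehicle and 3 caffeine mice. Per the labels and the methods of the study, the authors read poly(A) RNA from 1 end for 75 bases in 1 run, mapped the result to mm10 (GRCm38) with TopHat2 and deposited raw counts per gene from HTSeq on Ensembl 79, as 1 table per heart and not normalized. The libraries had been mixed for that run, but the counts of the hearts were not merged. How strand and multiply mapped reads were treated is not given in the sources used here.

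From the counts, edgeR 4.0.16 (R 4.3.3) kept 13092 genes with filterByExpr (minimum count 10, total 15), applied TMM factors (0.94 to 1.07) and tested caffeine against vehicle with the quasi-likelihood test. A gene was called at a Benjamini-Hochberg adjusted p below 0.05 and a fold above 1.5. Intervals are 95%. Single values were also tested by two-sided exact permutation over the 20 labelings. Isoenzyme shares are CPM per kb of merged exons (GENCODE M21, which differs from the counting annotation). Sequence windows of 75 bases were aligned with BWA 0.7.19 to GENCODE M21 transcripts. The members, gene lists and tests were chosen with earlier results of these data known. Named genes were all members, in full where hearts did not overlap, where the unadjusted p was below 0.05, for the most abundant gene per kb of each step and for Gapdh, plus the 3 further pathway genes with the largest log2 fold change and hearts apart, of which 2 are not reported here; values of Pgam1, Pdk4 and other members were added after they were seen. Scripts were tested on simulated data, and the alternatives follow in the closing section. Replicates of a group differed beyond sampling noise (chi-square per degree of freedom 5.37 to 14.0), so none was counted as a duplicate.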

Additional observations from a re-analysis of the deposited data

How the results depend on the processing

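The count of 0 members past the thresholds, and of 0 at an adjusted p below 0.05, held under every alternative run: other size factors, library size only, no filter and a stricter filter, the exact, likelihood ratio, robust quasi-likelihood, DESeq2 and limma-voom tests, each heart left out, the replicate block and members summed with their copies. The smallest adjusted p of a member over all of these was 0.233, for Pdha1 with library size only. Calls among all genes moved from 14 to 95 with the exact test, 101 with the likelihood ratio test, 67 with DESeq2, 240 without a filter, 27 with library size only, and 4 to 28 when a heart was left out. The cause of these moves was not tested.

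The median log2 fold change of the members ran from -0.057 to 0.032 over the hearts left out, being above 0 without vehicle 1 (0.032), and was -0.11 with library size only, where the median of all genes was -0.084. The number of isoenzyme shares with hearts apart, 2 of 18, was 2 to 6 when a heart was left out, with 6 without vehicle 2, 5 without caffeine 1 and 4 without caffeine 2, since fewer hearts overlap less often; it was 3 without vehicle 1 and 2 under both other length scalings. With the replicate number as a block, 0 members were called, the median was -0.030, the smallest adjusted p was 0.412 and 40 genes were called in all. No pairing by number was seen, as deviations of same-numbered hearts correlated at 0.054, -0.024 and -0.039. Hearts of different numbers correlated at -0.092 to 0.124. Whether same-numbered hearts shared a batch or day cannot be told from these values.

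Depth limits the result for Aldoc, Gapdh, Pgam1, Slc16a3, Pfkfb3 and Pdk3, each on under 100 reads in every heart. By share of windows, shared sequence reaches furthest in Eno1 (84.7%), Gapdh (82.6%) and Pgk1 (67.5%). By reads counted, the copies of Gapdh and Mpc1 held the larger part of their pairs.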
